A study of Homo sapiens with 12 samples.

Results

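The transcripts described here are those of 10 genes of cellular iron handling: TFRC, SLC40A1, FTH1, FTL, NCOA4, IREB2, ACO1, PCBP1, PCBP2 and HMOX1. They were taken by symbol from a table of 29607 genes measured in the human multiple myeloma line KMS11, and all 10 passed the expression filter that left 12731 genes for testing. The study asks what the kinase STK17B, a member of the death-associated protein kinase family, does in myeloma cells with regard to ferroptosis and drug resistance. Poly(A)-selected RNA was sequenced in 12 libraries of 6 groups with 2 libraries each. The shControl cells carried a control shRNA and were untreated, and the sh1 and sh2 cells carried 1 of 2 shRNAs against STK17B. The inhibitor cells were given a STK17B inhibitor whose name, dose and duration the labels do not state; the series' design places it on control-shRNA cells, and no group is labelled as vehicle, so the untreated shControl was the comparator. The Vector cells carried a control vector and the overexpression cells a vector with STK17B cDNA. All groups are 1 cell line, and the labels do not say whether the libraries of a group came from separate cultures, so p-values measure the spread between these libraries, which may be technical.

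Iron bound to transferrin enters cells through the transferrin receptor TFRC and is stored inside ferritin, a shell built of the heavy chain FTH1, which oxidises iron, and the light chain FTL. The poly(rC)-binding proteins PCBP1 and PCBP2 carry ferrous iron to its users, NCOA4 delivers ferritin to lysosomes so that stored iron is released, and ferroportin (SLC40A1) exports iron. ACO1 (IRP1) and IREB2 (IRP2) are the iron regulatory proteins: when iron is scarce they bind hairpins called iron-responsive elements, which blocks translation of ferritin and ferroportin mRNA and stabilises TFRC mRNA. HMOX1, heme oxygenase 1, splits heme into biliverdin, carbon monoxide and iron, and its gene is repressed by BACH1 and activated by NRF2. Free ferrous iron feeds the lipid peroxidation that defines ferroptosis.

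The hairpins set 4 of the 10 genes apart from the others, and each is shown with the region of the mRNA in which it lies. GENCODE v29 transcripts (GRCh38) were searched for CNNNNNCAGTGN, the bulged C, the upper stem and the loop, with the 5 bases on each side of the loop able to pair (G with T allowed). Capitals mark the loop.
FTH1, 5′ UTR, chr11:61967573-61967602, minus strand: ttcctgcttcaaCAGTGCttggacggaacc
FTL, 5′ UTR, chr19:48965335-48965364, plus strand: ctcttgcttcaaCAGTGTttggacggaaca
SLC40A1, 5′ UTR, chr2:189580660-189580689, minus strand: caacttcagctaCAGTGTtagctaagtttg
TFRC, 3′ UTR, chr3:196050978-196051007, minus strand: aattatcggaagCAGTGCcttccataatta
TFRC, 3′ UTR, chr3:196050574-196050603, minus strand: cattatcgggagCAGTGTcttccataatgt
TFRC, 3′ UTR, chr3:196050509-196050538, minus strand: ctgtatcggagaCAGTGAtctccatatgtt
TFRC, 3′ UTR, chr3:196050462-196050491, minus strand: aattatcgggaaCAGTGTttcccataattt
The storage and export genes held 1 match each, before the coding region, and TFRC held 4 after it. Not every annotated transcript held its match. It was in 7 of 8 protein-coding transcripts of FTH1, 1 of 1 of FTL, 1 of 5 of SLC40A1 and 3 of 4 of TFRC. Levels per gene do not tell such transcripts apart. No match was found in NCOA4, IREB2, ACO1, PCBP1, PCBP2 or HMOX1. The same search found a match in 291 of 19669 protein-coding genes, 1.48%. A match is a description of the letters, and translation, on which the 5′ elements act, was not measured.

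Values are TPM, transcript abundances scaled for length and to a common total per library, so levels can be set side by side between genes. Differences are on the log2(TPM + 1) scale and were called at an adjusted p below 0.05 (limma, Benjamini-Hochberg over all 12731 genes). Read counts were not used here, so the depth of the libraries is unknown. Control columns carry library numbers and no group name, and were matched to shControl and Vector by those numbers. STK17B was at 27.3 ± 0.238 TPM in shControl, 11.8 ± 1.26 in sh1, 14.6 ± 0.141 in sh2, 23.7 ± 1.79 with the inhibitor, 29.8 ± 2.33 in Vector and 89.3 ± 6.79 in overexpression (SD, n = 2 each). Of 9 plasma cell marker genes 8 were in the table, and their summed level was 2116 to 2139 TPM in shControl, 1409 to 1417 in sh1, 1672 to 1681 in sh2, 1557 to 1593 with the inhibitor, 2315 to 2321 in Vector and 1923 to 1938 in overexpression. The defining marker CD38 lay between 0.127 and 1.47 TPM. In every perturbed group that summed level was below both libraries of its control, and its part in the iron gene results was not tested. Macrophages and erythroid cells also use HMOX1 and SLC40A1 heavily. The 9 macrophage markers summed to between 1.10 and 3.18 TPM in any library with MARCO and C1QB at 0 throughout, and the 7 erythroid markers to at most 1.09 TPM with ALAS2 at 0 throughout. The 4 T cell markers, of which CD3E alone reached 1 TPM and CD3D was at 0 throughout, summed to 3.37 to 3.50 TPM in shControl, 5.01 to 5.75 in sh1, 6.005 to 6.20 in sh2, 4.46 to 5.29 with the inhibitor, 3.81 to 3.97 in Vector and 6.54 to 7.95 in overexpression, which was likewise not tested against the iron genes. In such bulk RNA, fewer cells with a transcript and less transcript per cell cannot be told apart.

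HMOX1 (chr22:35380361-35394214, plus strand in GRCh38, GENCODE v29) was higher than control in every perturbed group, and on the log2(TPM + 1) scale it had the largest difference of the 10 genes with knockdown, inhibitor and overexpression; by the ratio of mean TPM SLC40A1 exceeded it with knockdown (2.35 against 1.96). It was at 22.2 and 23.6 TPM in shControl, 51.7 and 43.7 in sh1, 40.9 and 42.8 in sh2, 91.0 and 93.5 with the inhibitor, 27.1 and 28.2 in Vector and 61.6 and 64.9 in overexpression. No 2 groups overlapped; the order from the highest mean was inhibitor, overexpression, sh1, sh2, Vector and shControl, and the neighbours sh1 and sh2 did not differ past the threshold (adjusted p = 0.22).
The inhibitor raised HMOX1 by 1.97 (SE 0.071, 95% interval 1.81 to 2.13, adjusted p = 1.30e-07), a ratio of mean TPM of 4.03 and the rank 18 from the highest of all 12731 differences. Knockdown, the mean of both shRNAs against shControl, raised it by 0.93 (SE 0.061, adjusted p = 3.89e-06), a ratio of 1.96. Each shRNA alone did so too, sh1 by 1.02 and sh2 by 0.84 (adjusted p = 5.53e-06 and 3.64e-05).
Overexpression, in which STK17B moved the other way, also raised HMOX1, by 1.16 over Vector (SE 0.071, adjusted p = 5.09e-06), a ratio of 2.28. The difference between the knockdown effect and the overexpression effect was -0.23 (95% interval -0.44 to -0.02, adjusted p = 0.094) and did not pass the threshold. With the inhibitor HMOX1 was 1.03 higher than with the shRNAs (adjusted p = 1.37e-06).
The controls differed as well: Vector was 0.26 above shControl (adjusted p = 0.021), a ratio of 1.21, which is smaller than any of the 3 rises. That control difference was not called under quantile normalization (0.17) or without shControl replicate 1 (0.22), Vector replicate 1 (0.29) or Vector replicate 2 (0.24).

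**Figure D1:**
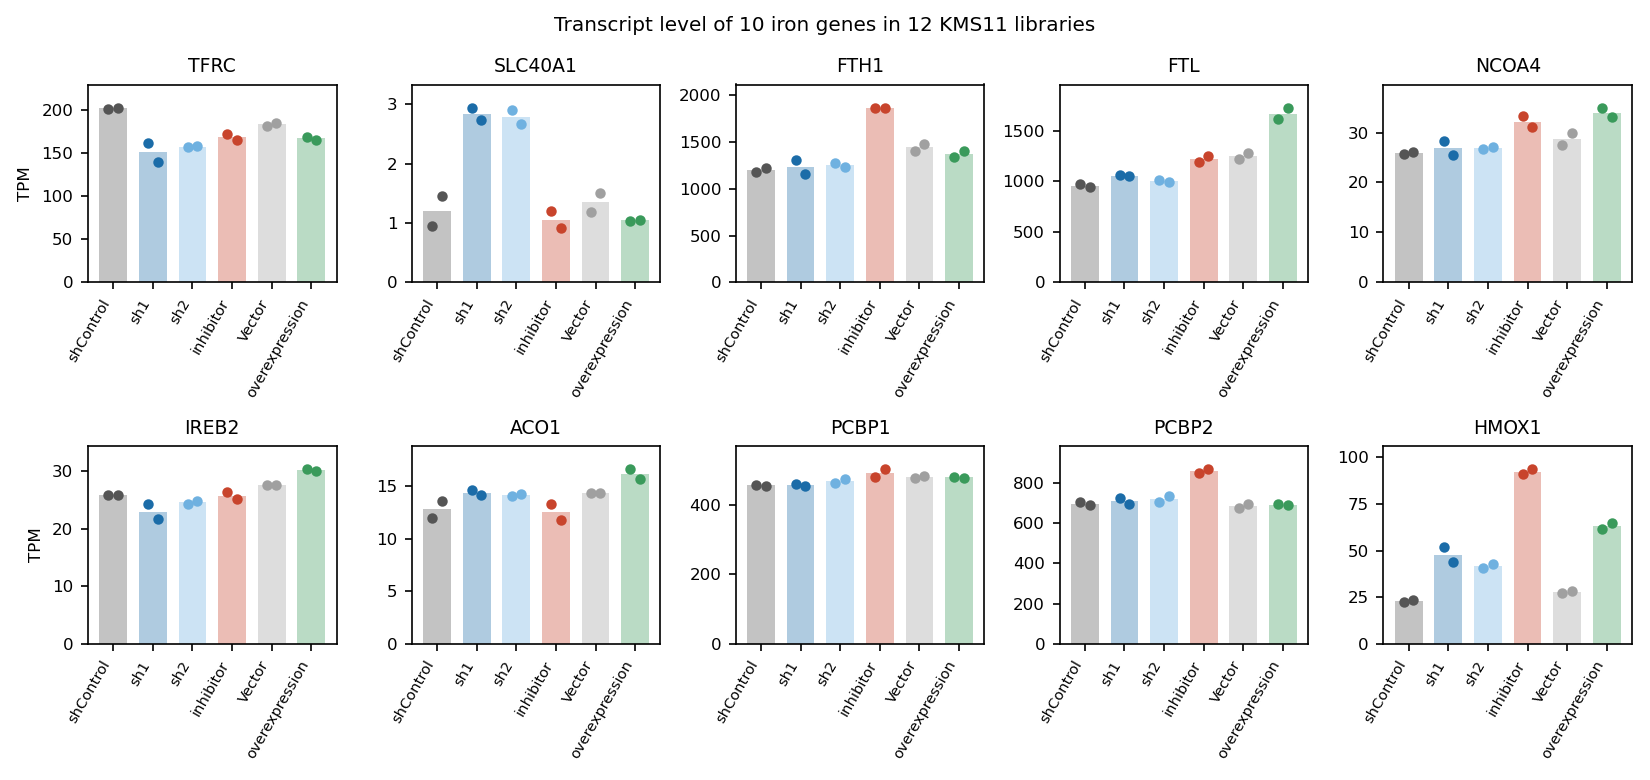
TPM of each of the 10 genes (vertical axes, linear from 0) in the 2 libraries of each of the 6 groups (points), with the group mean as a bar. The HMOX1 panel shows inhibitor libraries at 91.0 and 93.5 TPM and overexpression libraries at 61.6 and 64.9, above both controls, and the SLC40A1 panel shows only the shRNA libraries above 2 TPM.

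SLC40A1 (chr2:189560579-189583758, minus strand), the exporter, separated the shRNA libraries from every other library. It read 0.950 and 1.45 TPM in shControl, 2.94 and 2.74 in sh1, 2.90 and 2.68 in sh2, 1.19 and 0.908 with the inhibitor, 1.19 and 1.51 in Vector and 1.03 and 1.06 in overexpression. The 4 shRNA libraries were the 4 highest, and the remaining 4 groups overlapped with their neighbours in the order of means. Knockdown raised it by 0.80 (SE 0.12, 95% interval 0.54 to 1.06, adjusted p = 4.20e-04), a ratio of mean TPM of 2.35 that the added pseudocount shrinks on the log2 scale, and each shRNA called it (0.81 and 0.79). The inhibitor difference was -0.09 (95% interval -0.39 to 0.21, adjusted p = 0.61) and the overexpression difference -0.20 (95% interval -0.50 to 0.10, adjusted p = 0.27).
Tested directly, SLC40A1 was lower with the inhibitor than with the shRNAs by 0.90 (adjusted p = 1.51e-04), and the knockdown effect exceeded the overexpression effect by 1.002 (adjusted p = 0.0026). These are low levels: 10 of 12 libraries reached 1 TPM, and in shControl the gene ranked 11448 by mean TPM, against rank 685 for TFRC. The inhibitor difference took the opposite sign, at 0.07 and 0.007, without shControl replicate 2 and inhibitor replicate 2.

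TFRC (chr3:196027183-196082189, minus strand), the uptake receptor, was highest in the 2 control groups. Its level was 202 and 203 TPM in shControl, 162 and 139.9 in sh1, 157 and 158 in sh2, 173 and 166 with the inhibitor, 182 and 185 in Vector and 169 and 166 in overexpression. shControl and Vector lay above all other libraries, while inhibitor and overexpression overlapped, as did sh2 and sh1. Knockdown lowered TFRC to 76.4% of shControl on the log2(TPM + 1) scale (difference -0.39, SE 0.049, 95% interval -0.50 to -0.28, adjusted p = 1.92e-04), with -0.42 for sh1 and -0.36 for sh2. The inhibitor lowered it to 83.8% (-0.26, SE 0.057, adjusted p = 0.0063). In overexpression the difference was -0.13 (95% interval -0.26 to -0.005, adjusted p = 0.096), which did not pass although both libraries lay below both Vector libraries. It did pass with only the compared groups fitted (-0.13), after median-of-ratios scaling (-0.23), with the control columns exchanged (-0.27) and without either sh1 library (-0.13). The fall with knockdown exceeded that with overexpression by 0.26 (adjusted p = 0.030), and exchange of the control columns reversed the sign. The call was lost in 11 further alternative runs. Those without either shControl, sh2, Vector or overexpression library (-0.24 to -0.27) were among them.
The sh1 libraries were farther apart (SD 16.0 TPM) than those of any other group. The inhibitor's fall in TFRC depended on which control columns are shControl: with the control columns exchanged it was -0.12 (adjusted p = 0.11), whereas the knockdown fall was still called at -0.25, 1.55 times smaller.

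**Figure D2:**
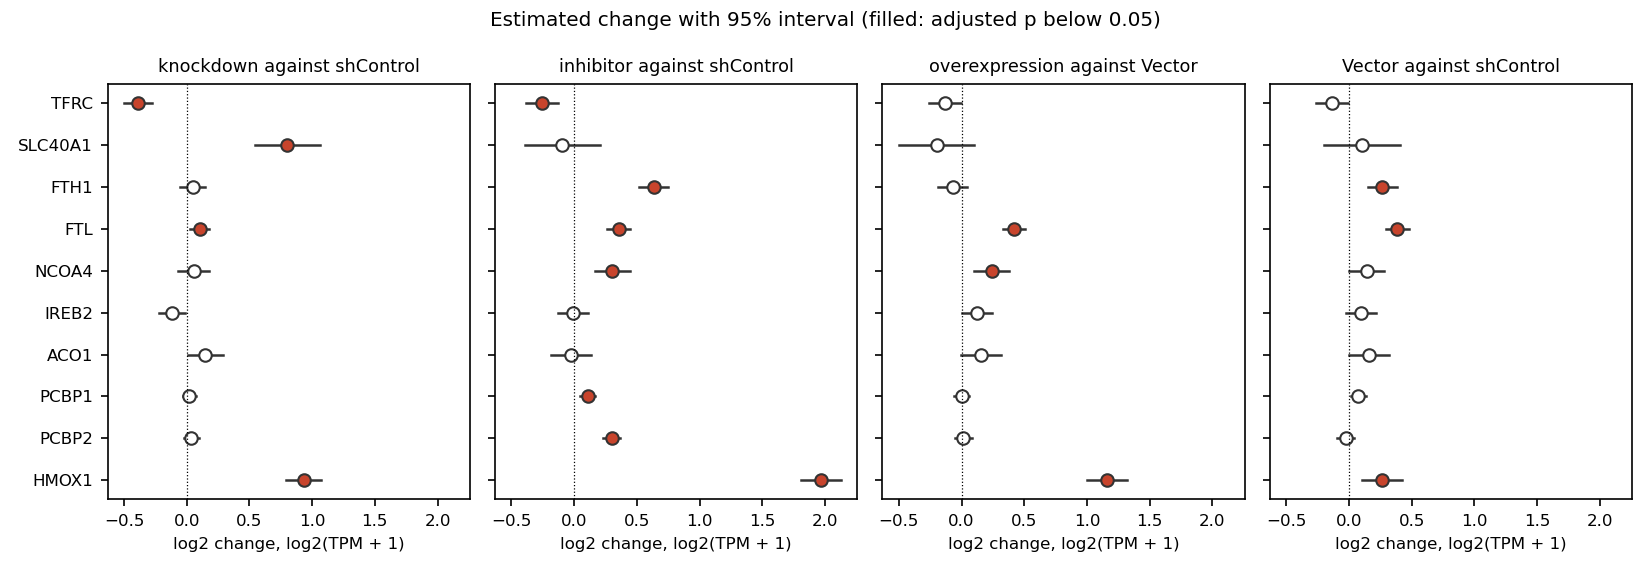
Difference on the log2(TPM + 1) scale (axis labelled in log2 units) for the 10 genes in the knockdown, inhibitor and overexpression comparisons and for Vector against shControl, 1 panel each; each point is the limma estimate, bars are 95% intervals, and filled points passed an adjusted p of 0.05. HMOX1 lies to the right of 0 in every panel, at 0.93, 1.97, 1.16 and 0.26, and TFRC is filled, to the left of 0, for knockdown and inhibitor.

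Ferritin was the most abundant transcript pair among the 10 genes, with FTH1 at rank 133 and FTL at rank 160 of all genes in shControl. FTH1 (chr11:61959718-61967660, minus strand) stood at 1178 and 1222 TPM in shControl, 1303 and 1160 in sh1, 1273 and 1235 in sh2, 1863 and 1865 with the inhibitor, 1402 and 1483 in Vector and 1344 and 1406 in overexpression. The inhibitor libraries lay above all others, Vector and overexpression overlapped below them, and the shRNA and shControl libraries overlapped at the lowest levels. The heavy chain rose by 0.63 with the inhibitor (SE 0.052, 95% interval 0.52 to 0.75, adjusted p = 2.48e-05), a ratio of mean TPM of 1.55 that took it from 0.120% to 0.186% of all TPM. Knockdown gave 0.049 (95% interval -0.051 to 0.15, adjusted p = 0.40) and overexpression -0.069 (95% interval -0.18 to 0.047, adjusted p = 0.33), the latter called lower after median-of-ratios scaling (-0.16). With the control columns exchanged the inhibitor rise was 0.37, still called.
FTL (chr19:48965301-48966878, plus strand) followed another order. It was at 973 and 943 TPM in shControl, 1059 and 1057 in sh1, 1013 and 990.4 in sh2, 1197 and 1253 with the inhibitor, 1221 and 1284 in Vector and 1614 and 1729 in overexpression. Overexpression was highest and shControl lowest, and neither overlapped with its neighbour in the order of means. The light chain rose by 0.42 with overexpression (SE 0.039, adjusted p = 6.27e-05, ratio 1.33) and by 0.35 with the inhibitor (SE 0.039, adjusted p = 1.43e-04, ratio 1.28).
With knockdown FTL rose by 0.10 (adjusted p = 0.031), and that call was lost in 8 alternative runs. Those runs included omission of either shControl library (0.13 without replicate 1, 0.081 without replicate 2). They also included omission of either sh1 library (0.10 in both) or of sh2 replicate 1 (0.096). Vector itself was above shControl, by 0.39 for FTL (adjusted p = 1.60e-04) and 0.26 for FTH1 (adjusted p = 0.0048), so inhibitor and Vector FTL levels overlapped. With the control columns exchanged, the FTL inhibitor difference was -0.03 and not called, the knockdown difference -0.28, and the overexpression rise 0.80.
The ratio of FTH1 to FTL therefore parted the inhibitor from overexpression. It was 1.21 and 1.296 in shControl, 1.23 and 1.10 in sh1, 1.26 and 1.25 in sh2, 1.56 and 1.49 with the inhibitor, 1.15 and 1.15 in Vector and 0.832 and 0.813 in overexpression. Inhibitor libraries were above, and overexpression libraries below, all others, and overexpression was the group with more FTL than FTH1. The ratio of TFRC to FTH1 was 0.171 and 0.166 in shControl, between 0.118 and 0.130 in the shRNA, Vector and overexpression libraries, and 0.0928 and 0.0889 with the inhibitor. GENCODE v29 holds 25 genes named as pseudogenes of FTH1 and 16 of FTL, so reads may have been split among copies and both levels are uncertain to that extent.

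**Figure D3:**
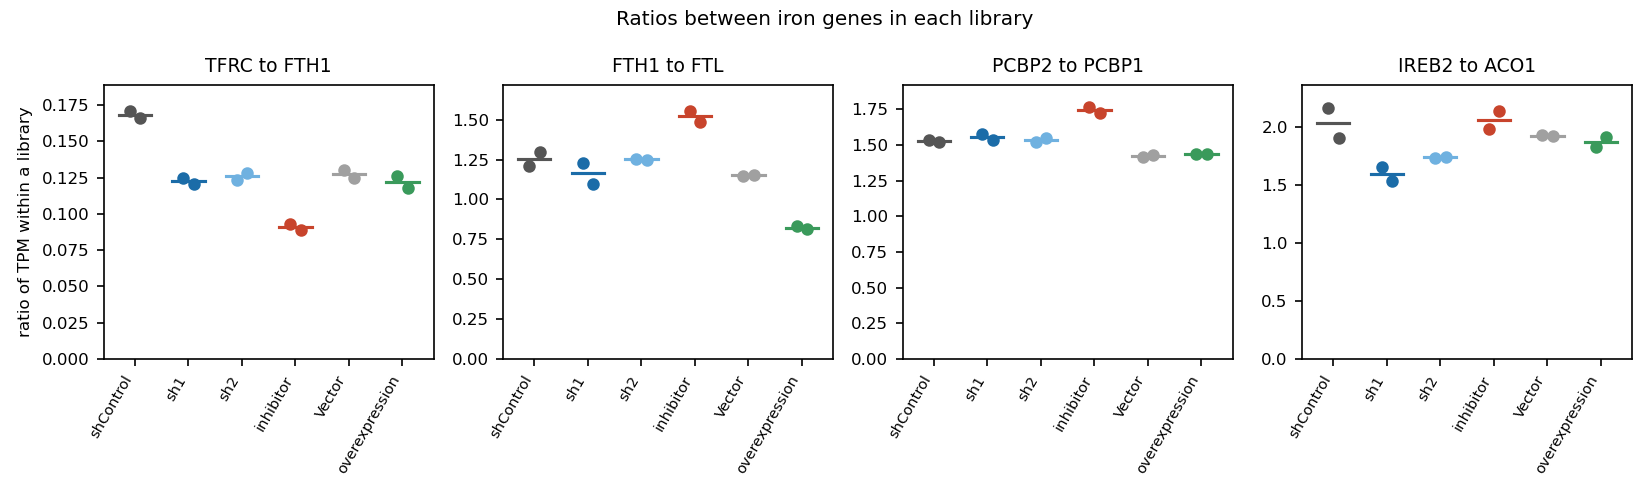
Ratios of TPM between pairs of the 10 genes (vertical axes, linear from 0) for the 2 libraries of each group (points) with the group mean (line). FTH1 to FTL is 1.49 and 1.56 with the inhibitor and 0.813 and 0.832 in overexpression, and the other groups lie between 1.10 and 1.296.

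NCOA4 (chr10:46005088-46030714, minus strand), the ferritin cargo receptor, was at 25.7 and 26.1 TPM in shControl, 28.4 and 25.5 in sh1, 26.7 and 27.2 in sh2, 33.4 and 31.1 with the inhibitor, 27.4 and 29.9 in Vector and 34.9 and 33.1 in overexpression. Inhibitor and overexpression libraries overlapped each other and lay above the rest. It rose by 0.30 with the inhibitor (SE 0.063, adjusted p = 0.0042) and by 0.24 with overexpression (SE 0.063, adjusted p = 0.014), and the knockdown difference was 0.055 (95% interval -0.067 to 0.18, adjusted p = 0.44). Without Vector replicate 1 the overexpression difference was 0.18 and without overexpression replicate 1 it was 0.20, neither called. With the control columns exchanged the inhibitor difference was 0.16 (adjusted p = 0.0504).

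The iron regulatory protein mRNAs differed little between groups. IREB2 (chr15:78437431-78501456, plus strand) was at 25.9 and 25.8 TPM in shControl, 24.3 and 21.6 in sh1, 24.3 and 24.8 in sh2, 26.3 and 25.2 with the inhibitor, 27.7 and 27.6 in Vector and 30.3 and 29.9 in overexpression. All 4 shRNA libraries lay below shControl and both overexpression libraries above Vector, yet neither difference passed, at -0.12 (adjusted p = 0.06) and 0.12 (adjusted p = 0.10). The knockdown difference passed after median-of-ratios scaling (-0.14), quantile normalization (-0.16), exchange of the control columns (-0.21) and without sh1 replicate 1 (-0.16), and the overexpression difference after that exchange (0.21) and without either sh1 library (0.12). sh1 alone was called (-0.17, adjusted p = 0.029), not so without either shControl library (-0.16 and -0.17) or without sh1 replicate 2 (-0.085). In total 4 alternative runs lost this call.
The knockdown effect on IREB2 lay below the overexpression effect by 0.24 (adjusted p = 0.029), and this call was lost without either shControl, Vector or overexpression library or without sh2 replicate 1 (-0.23 to -0.25). ACO1 (chr9:32384603-32454769, plus strand), which serves as cytosolic aconitase when it holds an iron-sulphur cluster, ranged from 11.8 to 16.6 TPM over the 12 libraries. Its differences were 0.15 with knockdown (adjusted p = 0.073), -0.03 with the inhibitor (adjusted p = 0.81) and 0.16 with overexpression (adjusted p = 0.11); the first passed without shControl replicate 2 (0.23) and the last with the control columns exchanged (0.31). The ratio of IREB2 to ACO1 was 1.90 to 2.16 in shControl and 1.53 to 1.74 in the 4 shRNA libraries.

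PCBP2 (chr12:53452102-53481162, plus strand) was called higher with the inhibitor and in neither other perturbation. It was at 704 and 690.2 TPM in shControl, 728 and 697 in sh1, 704 and 734 in sh2, 849 and 868 with the inhibitor, 677 and 693 in Vector and 693 and 689 in overexpression. The inhibitor libraries stood above all others, and the remaining groups overlapped with their neighbours in the order of means. The rise was 0.30 (SE 0.030, 95% interval 0.23 to 0.37, adjusted p = 8.23e-05, ratio 1.23). Knockdown gave 0.038 (adjusted p = 0.27; 0.098 and called after quantile normalization), overexpression gave 0.013 (adjusted p = 0.77), and the inhibitor exceeded the shRNAs by 0.26 (adjusted p = 2.97e-05). Its difference from overexpression was not tested. The annotation holds 2 genes named as pseudogenes of PCBP2.
PCBP1 (chr2:70087454-70089203, plus strand), a gene of 1 exon, was the steadiest of the 10 at 454 to 503 TPM, a highest to lowest ratio of 1.11. Its inhibitor difference was 0.11 (adjusted p = 0.011). It fell to 0.02 after median-of-ratios scaling and 0.008 after quantile normalization and was not called under either. Nor was it called without shControl replicate 2 (0.099) or inhibitor replicate 2 (0.075). In total 7 alternative runs lost that call. The ratio of PCBP2 to PCBP1 was 1.72 to 1.76 with the inhibitor and 1.42 to 1.58 elsewhere.

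Counted over the 10 genes, knockdown called 4, with HMOX1, SLC40A1 and FTL higher and TFRC lower, where 46.3% of all tested genes were called. The inhibitor called 7, with HMOX1, FTH1, FTL, NCOA4, PCBP1 and PCBP2 higher and TFRC lower, against 39.9% of tested genes; with the control columns exchanged it called 3 of the 10, while 6739 of the 12731 genes were called. Overexpression called 3, HMOX1, FTL and NCOA4, all higher, against 36.8%. The shares of the 10 are close to the background for knockdown and overexpression, so the counts there say nothing particular about these genes. By size, HMOX1 ranked 161 from the highest of all differences with knockdown, 18 with the inhibitor and 98 with overexpression, and SLC40A1 ranked 232 with knockdown.
The median difference of the 10 was 0.05 with knockdown, 0.20 with the inhibitor and 0.07 with overexpression, beside 0.03, 0.08 and 0.08 over all tested genes. sh1 alone called 5 (45.0% of tested genes) and sh2 alone 3 (35.5%). Between the shRNAs limma called none of the 10 (1.55% of tested genes), with 1, HMOX1, under an unadjusted p of 0.05.
Vector against shControl called 3, HMOX1, FTH1 and FTL, all higher (29.3%). The inhibitor against the mean of the shRNAs called 9 (52.6%), with TFRC, FTH1, FTL, NCOA4, PCBP1, PCBP2 and HMOX1 higher and SLC40A1 and ACO1 lower. In that comparison the TFRC difference (0.13) was lost in most single-library omissions (0.10 to 0.16) and was 0.080 without sh1 replicate 2. The ACO1 difference (-0.17) was lost without sh1 replicate 1, either sh2 or Vector library or inhibitor replicate 2 (-0.094 to -0.18). The PCBP1 difference (0.087) was lost without inhibitor replicate 2 (0.055). Over all alternative runs TFRC lost its call with the sign kept in 15, ACO1 in 8 and PCBP1 in 3. The PCBP1 difference also changed sign in 1 further run, under quantile normalization. The knockdown effect against the overexpression effect called 4 (29.9%), SLC40A1 higher and TFRC, FTL and IREB2 lower. The knockdown and inhibitor comparisons share their shControl libraries.

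Further genes of the pathway were read from lists of uptake, sensing, heme and NRF2 genes. Their counts stand beside the shares of all tested genes, of which 26.2% were called higher and 20.2% lower with knockdown, 28.0% and 11.8% with the inhibitor, and 26.6% and 10.3% with overexpression. The lists are small, and counts near those shares say nothing particular about a list. These shares hold for the main run, and the background moved in the alternative runs. With the control columns exchanged, 6117 genes were called with knockdown, 6739 with the inhibitor and 7468 with overexpression, against 5900, 5076 and 4689. Upward calls made up 50.0% of calls with the inhibitor and 47.8% with overexpression after median-of-ratios scaling, and 51.9% and 46.3% after quantile normalization.
Among 9 tested uptake genes, knockdown called 2 higher and 3 lower, the inhibitor 3 and 1, and overexpression 2 and 4, the last 0 and 4 after median-of-ratios scaling. SLC39A8, a zinc and iron importer of the plasma membrane, fell in all 3, by 0.48 with knockdown, 0.41 with the inhibitor and 0.37 with overexpression, from 46.3 ± 2.41 TPM in shControl and 46.8 ± 0.908 in Vector (SD, n = 2). Its relative SLC39A14 fell by 0.29 with knockdown (-0.19 with the control columns exchanged), and its inhibitor rise of 0.17 was not called after median-of-ratios scaling (0.09) or quantile normalization (0.068).
STEAP3, the endosomal ferrireductase, fell by 0.20 with knockdown and 0.25 with overexpression, and EXOC6, an exocyst subunit, rose by 0.44 with the inhibitor. With the control columns exchanged the STEAP3 differences were -0.07, not called, and -0.38. Of 5 systemic control and storage genes, knockdown and the inhibitor each called 3 lower and none higher, and overexpression called 1 lower; with the control columns exchanged overexpression called 3 higher and none lower. BMP6, the ligand that sets hepcidin in liver, fell by 0.64 with knockdown and 0.24 with the inhibitor. HERC2, a ubiquitin ligase, fell by 0.37, 0.16 and 0.17 in knockdown, inhibitor and overexpression, the last not called with the control columns exchanged (-0.098) and -0.31 after quantile normalization.

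Of 13 genes of iron sensing, chaperoning and mitochondrial import, knockdown called 4 higher and 4 lower, the inhibitor 5 higher and none lower, and overexpression 2 and 2. The overexpression count was 0 higher and 5 lower after median-of-ratios scaling and 0 and 4 after quantile normalization, which also left the inhibitor at 2 higher. FBXL5, the iron-sensing subunit of the ligase that degrades IRP2, was 0.34 higher with knockdown (9.90 ± 0.519 TPM, n = 4, against 7.61 ± 0.292, n = 2, SD), but -0.03 with the control columns exchanged. SLC25A37, mitoferrin 1, fell by 0.31 with knockdown and rose by 0.25 with overexpression, the latter not called after either rescaling (0.16 and 0.14). CISD1, an outer mitochondrial iron-sulphur protein, rose by 0.30 with the inhibitor, and by 0.19 after quantile normalization.
Heme synthesis genes were called 4 higher and 1 lower of 12 with knockdown, 5 and 0 with the inhibitor, and 7 and 1 with overexpression. After quantile normalization the inhibitor count was 3 and 3, and with the control columns exchanged it was 4 and 3. UROS, uroporphyrinogen III synthase, rose by 0.24, 0.57 and 0.34 in knockdown, inhibitor and overexpression, CPOX by 0.55 with the inhibitor, and ALAD by 0.37 with overexpression. The exchange of control columns moved UROS to 0.38 with knockdown and 0.20 with overexpression and ALAD to 0.69.
Among 10 genes of heme breakdown and transport, 1 was called higher and 4 lower with knockdown, 2 and 2 with the inhibitor, and 2 and 3 with overexpression. Median-of-ratios scaling gave 0 and 4 with the inhibitor and 2 and 5 with overexpression, and quantile normalization gave 0 and 5 and 2 and 6. HMOX2, the constitutive heme oxygenase, did not follow HMOX1: it fell by 0.30 with knockdown and 0.19 with overexpression (0.29 after quantile normalization), and its inhibitor rise of 0.22 was not called after either rescaling (0.13 and 0.12). FLVCR1, known as a heme exporter, fell by 0.32, 0.25 and 0.35 in the 3 comparisons, the inhibitor value not called with the control columns exchanged (-0.19). SLC48A1, which moves heme out of the lysosome, rose by 0.41 with overexpression.

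The regulators of HMOX1 and the other NRF2 targets were read beside it. Of 10 BACH1 and NRF2 regulators, knockdown called 6 higher and 2 lower, the inhibitor 5 and 1, and overexpression 3 and 0. These counts depended on the control columns, whose exchange gave 3 higher and 4 lower, 4 and 4, and 7 and 1. Over all tested genes that exchange also moved the upward share of calls, from 56.4%, 70.3% and 72.1% to 38.7%, 49.0% and 76.6%. BACH1 mRNA was called in none of the 3, with differences of -0.03, 0.06 and 0.05 (adjusted p = 0.73, 0.58 and 0.68). It is given outside the rule that only called genes of a list are named, and NRF2 mRNA is not given. SQSTM1 (p62), the autophagy receptor that binds KEAP1, rose by 0.76 with knockdown and 1.01 with the inhibitor, from 106 ± 0.352 TPM in shControl to 181 ± 17.1 (n = 4) and 215 ± 1.37 (n = 2, SD). KEAP1, the adaptor that marks NRF2 for degradation, rose by 0.37 and 0.47 (0.61 and 0.71 with the control columns exchanged). MAFG, a small MAF partner of both factors, rose by 0.31 with the inhibitor and 0.38 with overexpression. The exchange of control columns made these 0.089, not called, and 0.60. MAFK, another small MAF, fell by 0.35 with knockdown and rose by 0.33 with overexpression.
Of 12 NRF2 target enzymes other than HMOX1, 10 were called higher and 1 lower with the inhibitor, 5 and 3 with knockdown, and 2 and 5 with overexpression. After median-of-ratios scaling the counts were 6 and 1, 2 and 3, and 0 and 7. NQO1, a quinone reductase, rose by 0.76 with the inhibitor, from 38.6 ± 1.89 to 66.0 ± 1.05 TPM (SD, n = 2), and fell by 0.41 with overexpression, from 36.0 ± 0.895 to 26.9 ± 0.841. ME1, malic enzyme, rose by 0.78 with the inhibitor and fell by 0.44 with overexpression, and SRXN1, sulfiredoxin, fell by 0.37 with overexpression. Knockdown also called ME1 higher, by 0.30, and NQO1, by 0.14. GSR was 0.23 higher with knockdown and GCLM 0.22 lower. GCLC, the catalytic subunit of glutathione synthesis, rose by 0.46 with the inhibitor.

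**Figure D4:**
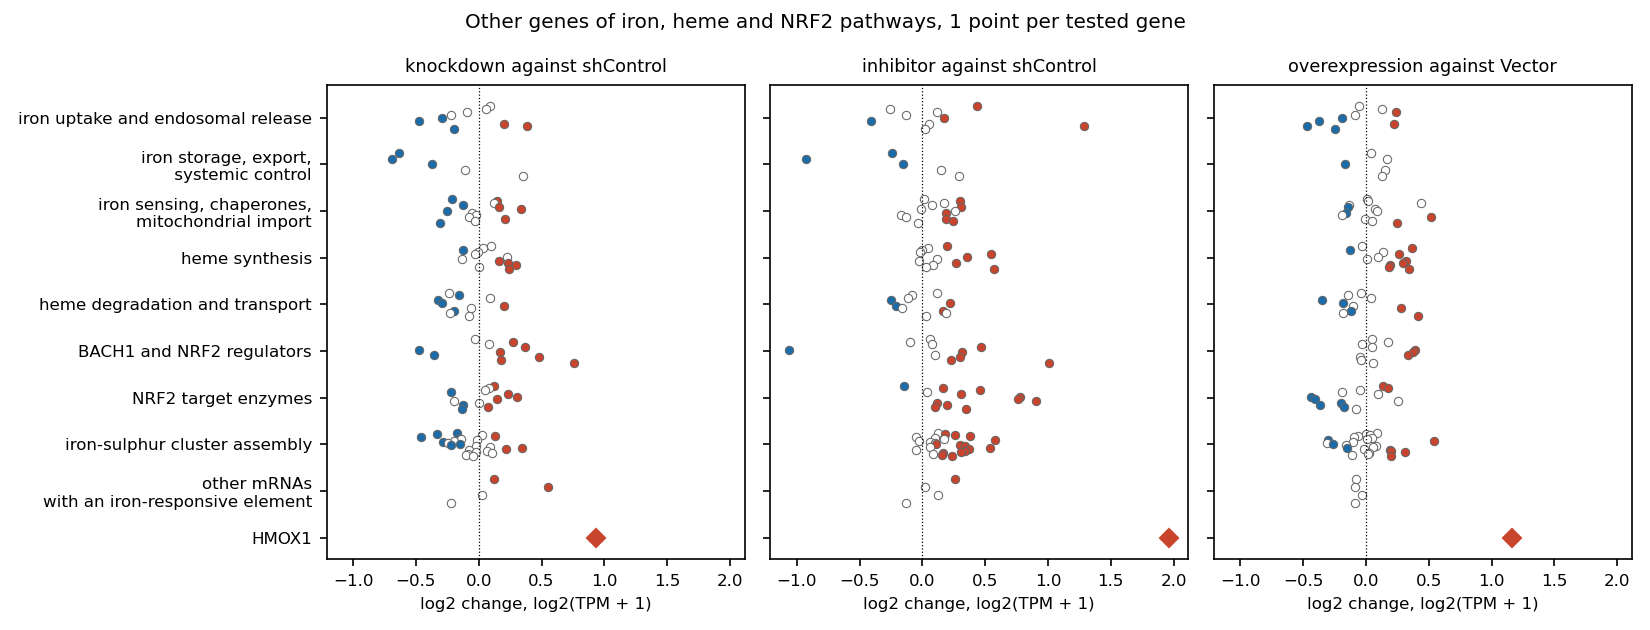
Difference on the log2(TPM + 1) scale for each tested gene of the pathway lists (1 point per gene; red called higher, blue called lower, open not called), by list and comparison, with HMOX1 as a diamond. With the inhibitor 10 of 12 NRF2 target enzymes are red, with overexpression 5 are blue, and the HMOX1 diamonds lie at 0.93, 1.97 and 1.16.

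Genes most like 3 of the iron genes were sought among 4010 or 4011 expressed genes whose group means spanned at least 0.5 log2 units, by Pearson r over the 12 libraries, which come in 6 groups of 2. For HMOX1 these were DMPK (r = 0.971), R3HDM4, HNRNPLL, PITPNA and CCNY (0.938). Mean DMPK was lowest in Vector and shControl, at 12.1 TPM or less, lay between 16.8 and 18.3 in sh2, sh1 and overexpression, and was highest with the inhibitor at 22.3. For SLC40A1 they were IFNGR2 (0.951), GIPC3, RAB9A, HLA-DMB and CRK (0.934), each with its highest mean in sh1. For TFRC they were MTDH (0.955), SEC11C, MTMR10, POLR3G and CLIC2 (0.926), each highest in shControl and lowest in sh1. Because the genes were picked for the highest r, the high r and the shared order of groups follow from the choice.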

How the data were processed

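The deposited values were TPM per gene and library. Per the labels' protocols, RNA was extracted with RNeasy, selected with oligo-dT and sequenced as stranded DNBSEQ libraries; the submitters' processing notes list GRCh38.p13, RSEM 1.3.1, Bowtie2 2.3.4.3, HISAT and DESeq2 1.4.5, with no role for any. Assigning the control columns to shControl and Vector by library number is an inference, so the exchanged assignment was also run.

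Genes reaching 1 TPM in 2 or more libraries entered limma 3.58.1 (R 4.3.3) on log2(TPM + 1), with 1 mean per group over the 12 libraries, trended empirical Bayes moderation, and p-values adjusted by Benjamini-Hochberg separately for each of 9 comparisons. The procedure was tested on simulated data. A permutation test of 2 against 2 libraries cannot reach 0.05. Members and lists were chosen with earlier results of these data known. From each list, up to 4 called genes per comparison with a mean of at least 5 TPM, no overlap and the largest differences could be named. Intervals are 95%. Same-numbered libraries did not deviate together.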

Additional observations from a re-analysis of the deposited data

How the results depend on the processing

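HMOX1 in all 3 perturbations, SLC40A1 and TFRC with knockdown, FTH1 and PCBP2 with the inhibitor and FTL with overexpression kept their calls and directions in every alternative run, except that SLC40A1 has no value at a 5 TPM filter. Of the alternative values computed, 1009 kept their sign and call status, 74 lost a call, 18 gained one and 26 changed sign. Part of this tally was fixed in advance. Exchanging the control columns had to reverse Vector against shControl and could not move the inhibitor against the shRNAs. Omitting a library of a group outside a comparison left the estimate of that comparison unchanged. Counts of the 10 genes called moved as follows. Quantile normalization gave 7 with knockdown and 6 with sh2, and median-of-ratios scaling gave 5 with overexpression and 5 for Vector against shControl. Over all genes quantile normalization called 6038 and 4724 of 12731 there, and median-of-ratios scaling 4591 and 3641 of 12692. The main run called 5900, 4514, 4689 and 3724 of 12731 in these comparisons. Exchanging the control columns gave 6 with sh2, 3 with the inhibitor, 8 with overexpression and 8 for the knockdown effect against the overexpression effect. Over all 12731 genes that exchange called 4846, 6739, 7468 and 7605 in these comparisons, against 4514, 5076, 4689 and 3806 in the main run. The counts of the 10 therefore moved together with a moving background. Omitting single libraries gave 3 to 4 with knockdown, 3 to 5 with sh1, 3 with sh2, 6 to 7 with the inhibitor, 2 to 5 with overexpression, 2 to 4 for Vector against shControl, 0 between the shRNAs, 6 to 9 for the inhibitor against the shRNAs and 2 to 5 for the knockdown effect against the overexpression effect. The causes were not tested.

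Signs changed with exchanged columns for knockdown in FTH1 (-0.22), FTL (-0.28), NCOA4 (-0.085), ACO1 (-0.0085) and PCBP1 (-0.054), for sh1 in FTL (-0.24), for the inhibitor in FTL (-0.032), for overexpression in FTH1 (0.20) and PCBP2 (-0.013), for Vector against shControl in FTH1 (-0.26), FTL (-0.39) and HMOX1 (-0.26), and for the knockdown against the overexpression effect in TFRC (0.019). Median-of-ratios scaling turned PCBP1 with knockdown (-0.0071) and, with overexpression, PCBP1 (-0.093) and PCBP2 (-0.080). Quantile normalization turned PCBP1 with overexpression (-0.016) and for the inhibitor against the shRNAs (-0.067). When single libraries were omitted, differences that were not called changed sign: with the inhibitor SLC40A1 ranged from -0.26 to 0.070, ACO1 from -0.11 to 0.058 and IREB2 from -0.037 to 0.025, and with overexpression PCBP1 from -0.010 to 0.011 and PCBP2 from -0.0042 to 0.030.

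Over all tested genes, upward calls made up 70.3% of calls with the inhibitor, 50.0% after median-of-ratios scaling and 51.9% after quantile normalization; for overexpression they made up 72.1%, 47.8% and 46.3%. Replicate numbers are shared between groups, but deviations of same-numbered libraries correlated at -0.10 to 0.14 over 15 pairs of groups, 1 of them over 0.1, so the numbers are not a pairing; with a replicate block the counts stayed at 4 with knockdown, 7 with the inhibitor and 3 with overexpression. Depth is unknown, 2 libraries per group limit every interval, and SLC40A1 near 1 TPM is the least certain level.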

Other observations

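The genes that build iron-sulphur clusters, the main use of mitochondrial iron beside heme, differed between the perturbations in how many were called. With the inhibitor 14 of 24 tested were higher and none lower, beside 28.0% of all tested genes called higher. After median-of-ratios scaling that count was 9 higher and 1 lower, and after quantile normalization 8 and 1. The background fell as well. Median-of-ratios scaling called 4324 of 12692 genes, 50.0% of these calls higher, and quantile normalization 4054 of 12731, 51.9% of these higher. Knockdown called 3 higher and 7 lower, beside 26.2% and 20.2% of all tested genes. Overexpression called 5 higher and 3 lower, beside 26.6% and 10.3%. The balance turned to 4 and 7 after median-of-ratios scaling, 5 and 8 after quantile normalization and 8 and 10 with the control columns exchanged. Over all genes those 3 runs called 4591, 4776 and 7468, with 47.8%, 46.3% and 76.6% of the calls higher. ISCU, the scaffold protein, rose by 0.54 with the inhibitor and 0.34 with knockdown, from 266 ± 1.67 TPM in shControl to 387 ± 9.57 (n = 2) and 338 ± 7.46 (n = 4, SD). CIAPIN1, an electron carrier of the cytosolic machinery, rose by 0.38 with the inhibitor. GLRX5, a mitochondrial glutaredoxin, fell by 0.28 with knockdown and BOLA3, which helps deliver clusters, by 0.34 (0.14 with the control columns exchanged). HSPA9, the mitochondrial HSP70, fell by 0.26 with overexpression.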
